A study of Mus musculus with 6 samples.

Results

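Transcripts of 10 genes of the endoplasmic reticulum (ER) folding machinery and the unfolded protein response were examined in white adipose tissue of mice. The genes were chosen by symbol: Hspa5, Hsp90b1, Calr, Pdia4, Pdia6, Dnajb9, Herpud1, Xbp1, Atf4 and Ddit3. All 10 were found among the 32759 genes of the deposited table, and all 10 passed the minimum level for testing, a mean of 0.5 FPKM, a fragment count scaled to transcript length and library size. Treatment was represented by 3 samples from mice fed a high-fat diet (HFD) and given the small molecule tetrahydroberberrubine (THBru) at 50 mg per kg per day, called THBru 1 to 3. They were set against 3 samples from mice on the same diet without the compound, called HFD 1 to 3. Strain, sex, age, length of treatment and fat depot are not given in the labels, and nothing there says that each sample is a different animal, so p-values measure only the spread between these samples, which may be technical. The question was which processes THBru altered in fat of mice on the diet.

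The ER folds secreted and membrane proteins with the help of chaperones and of enzymes that form disulfide bonds. When unfolded proteins accumulate, the sensors IRE1, PERK and ATF6 raise the output of that machinery: IRE1 splices Xbp1 mRNA into the form that encodes an active transcription factor, PERK slows translation while favouring that of ATF4, and cleaved ATF6 enters the nucleus. ATF4 in turn activates Ddit3, whose product CHOP is linked to cell death under lasting stress. In obese fat, ER stress has been described beside insulin resistance and inflammation, and cells that secrete large amounts of protein keep these chaperones at high levels.

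The libraries differed in composition. Total counts were 67195085 to 72099512 in THBru and 69279680 to 76995679 in HFD. Of the counts of THBru 1, 43.3% fell on 10 seminal vesicle genes, against 0.0807% for THBru 2, 0.119% for THBru 3 and 0.054 to 0.0643% for HFD, and 10 of 10 were above every HFD library in each THBru library. Epididymal epithelium genes made up 4.99% of THBru 3 (11 of 11 above every HFD library), 0.00862 to 0.0137% of THBru 1 and THBru 2 and 0.00558 to 0.00644% of HFD. Kidney tubule genes made up 0.127% of THBru 2 (11 of 11 above every HFD library), 0.000245 to 0.0109% of THBru 1 and THBru 3 and 0.000457 to 0.00478% of HFD. The 22 mature adipocyte markers were all detected in every library and took 1.0, 4.32 and 0.574% of counts in THBru 1 to 3, against 3.59, 4.69 and 5.81% in HFD 1 to 3. Macrophage markers took 0.0769, 0.23 and 0.0566% in THBru 1 to 3, against 1.08, 0.452 and 0.512% in HFD 1 to 3. In such bulk samples fewer cells of a type and less RNA per cell cannot be told apart. The part of these other-organ transcripts in the results was not tested. Because 10 genes took so much of THBru 1, levels are given both as CPM, each count scaled to the library's total, and as CPM scaled by the trimmed mean of M-values (TMM), whose factor was 0.632 for THBru 1, 1.19 for THBru 2, 1.12 for THBru 3 and 1.02 to 1.08 for HFD. A factor under 1 raises every gene of its library.

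None of the 10 genes passed an adjusted p of 0.05 between THBru and HFD. The count was 0 of 10 with edgeR's quasi-likelihood test, against 0.118% of the 16140 genes tested, and 0 of 10 with DESeq2, against 17.8% of genes. At an unadjusted p under 0.05 edgeR also gave 0 of 10, against 13.9% of genes higher and 8.93% lower. It called 0 of 10 on total counts (0.328% of genes), with no filter on low genes (0.0855%) and without THBru 2 (9.62%), and in THBru 2 alone against the HFD samples (2.17% of genes higher and 0.0372% lower). Scaled to mature adipocyte genes, whose share was lowest in THBru 1 and THBru 3, edgeR called 7 of 10 higher, against 28.1% of genes higher and 0.155% lower (28.3% in either direction). Of the 10 fold changes, 9 were positive, as were 8786 of the 16140. The median log2 fold change was 0.96 for the 10 genes and 0.08 for all genes tested. That median stood at 0.23 without THBru 3, and at −0.46 in THBru 2 alone. The 10 genes are grouped by pattern across the libraries, a grouping made from these values.

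**Figure D1:**
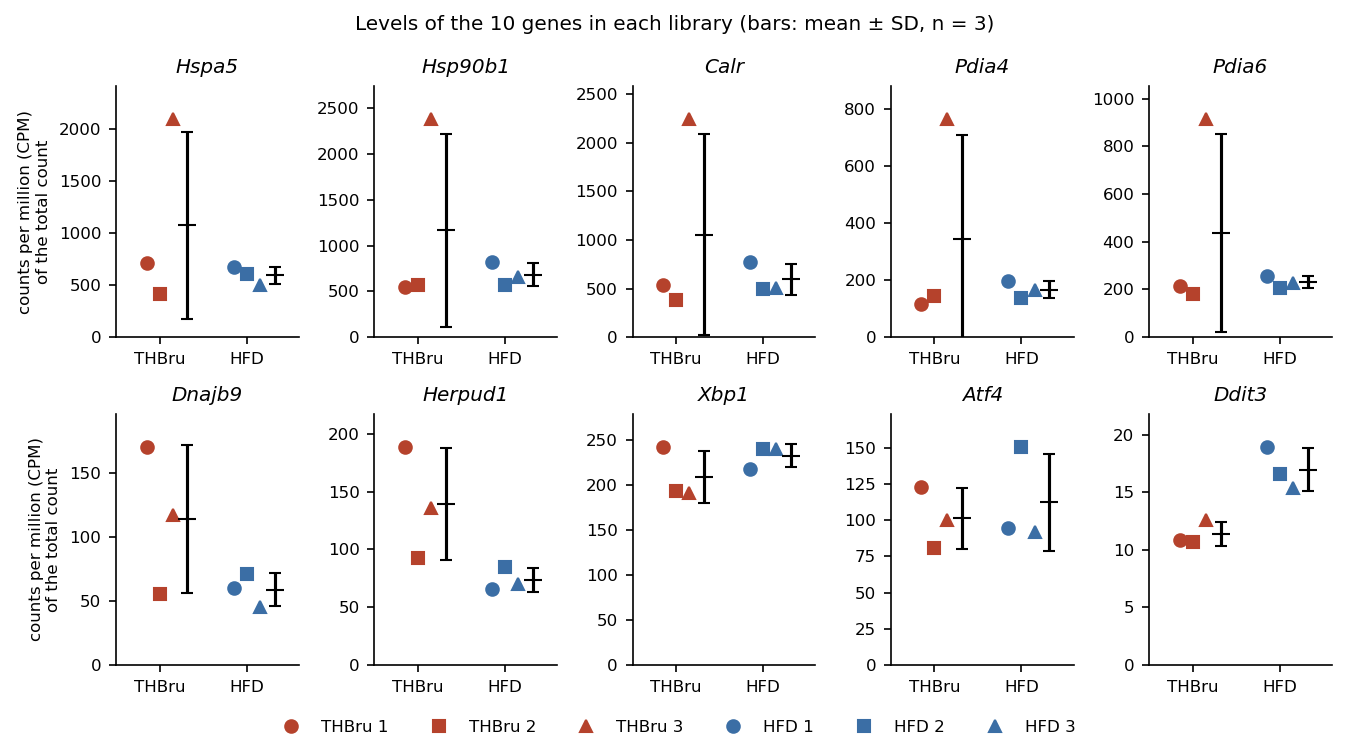
Level of each of the 10 genes, in CPM of the total count, in 3 THBru libraries (red, left) and 3 HFD libraries (blue, right), with the mean ± SD (n = 3) beside each group. Hspa5, Hsp90b1, Calr, Pdia4 and Pdia6 stand apart in THBru 3 alone on this scale, Dnajb9 and Herpud1 are highest in THBru 1 and THBru 3, and Ddit3 is lower in all 3 THBru libraries, though not with TMM scaling, where THBru 1 lies within the HFD range.

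The first pattern held the abundant chaperones and disulfide isomerases, which were 3.49 to 4.61 times the HFD mean in THBru 3 and 0.64 to 1.19 times in THBru 1 and THBru 2 on the total count. With TMM scaling they were 1.18 to 2.0 times the HFD mean in THBru 1, 0.571 to 0.781 times in THBru 2 and 3.33 to 4.39 times in THBru 3. Hspa5 encodes BiP, the ER member of the HSP70 family, which binds unfolded chains and holds the sensors inactive. Hspa5 had 709, 412 and 2099 CPM in THBru 1 to 3, against 670, 609 and 500 CPM in HFD 1 to 3. THBru 3 stood above every HFD library, THBru 2 below every one, and THBru 1 slightly above the highest. The mean was 1074 ± 901 CPM in THBru and 593 ± 86.0 CPM in HFD (SD, n = 3 each). The edgeR log2 fold change was 0.99 (SE 0.62; adjusted p = 0.358).

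Hsp90b1, the ER form of HSP90, had 550, 569 and 2385 CPM in THBru 1 to 3, against 820, 570 and 659 CPM in HFD 1 to 3. Calr encodes calreticulin, a lectin chaperone of newly glycosylated proteins and a calcium store, and had 540, 380 and 2246 CPM in THBru 1 to 3, against 774, 500 and 506 CPM in HFD 1 to 3. On this scale only THBru 3 exceeded the HFD range for both genes, whereas with TMM scaling THBru 1 did too, at 870 CPM for Hsp90b1 and 854 CPM for Calr, against at most 759 and 716 CPM in HFD. Their log2 fold changes were 0.85 (SE 0.59) for Hsp90b1 and 0.93 (SE 0.69) for Calr, with edgeR adjusted p-values of 0.401 and 0.427.

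The protein disulfide isomerases Pdia4 and Pdia6 form and rearrange disulfide bonds in client proteins. Pdia4 had 117, 145 and 765 CPM in THBru 1 to 3, against 196, 138 and 164 CPM in HFD 1 to 3. Pdia6 had 215, 179 and 916 CPM in THBru 1 to 3, against 258, 208 and 228 CPM in HFD 1 to 3. Both were above the HFD range on the total count in THBru 3 only, with log2 fold changes of 1.08 (SE 0.68) for Pdia4 and 1.0 (SE 0.62) for Pdia6 and edgeR adjusted p-values of 0.359 and 0.349. Together the 5 genes took 0.213, 0.169 and 0.841% of all counts in THBru 1 to 3, against 0.272, 0.203 and 0.206% in HFD 1 to 3. Without THBru 3 the log2 fold changes were 0.39 for Hspa5, 0.07 for Hsp90b1, 0.07 for Calr, −0.03 for Pdia4 and 0.17 for Pdia6. THBru 3 was the library with epididymal transcripts.

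The second pattern held Dnajb9 and Herpud1, which were highest in THBru 1, the library with seminal vesicle transcripts, and next highest in THBru 3. Dnajb9 encodes ERdj4, a J-domain partner of BiP that acts on misfolded proteins and on IRE1, and had 171, 55.2 and 117 CPM in THBru 1 to 3, against 60.0, 71.4 and 45.5 CPM in HFD 1 to 3. THBru 2 lay within the HFD range. Herpud1, a membrane protein of ER-associated degradation, had 189, 92.9 and 136 CPM in THBru 1 to 3, against 65.3, 84.9 and 69.7 CPM in HFD 1 to 3. On this scale every THBru library was above every HFD library for Herpud1, as for 10.4% of genes tested. With TMM scaling, Herpud1 had 300, 78.0 and 122 CPM in THBru 1 to 3, against 60.4, 83.1 and 64.6 CPM in HFD 1 to 3, so the groups overlapped through THBru 2. The log2 fold changes were 1.33 for Dnajb9 (SE 0.65) and 1.26 for Herpud1 (SE 0.53), and did not pass (edgeR adjusted p = 0.268 and 0.226). They were the largest of the 10 with TMM scaling, but on total counts they were 0.96 and 0.93, under Pdia4 at 1.04. Without THBru 1 they were 0.42 and 0.51, against 1.36 for Pdia4.

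The third pattern held the transcription factor genes Xbp1, Atf4 and Ddit3, which were 0.744 to 0.89 times the HFD mean in THBru 3 on the total count. Xbp1 had 243, 194 and 191 CPM in THBru 1 to 3, against 218, 240 and 240 CPM in HFD 1 to 3. These gene counts do not separate the spliced from the unspliced Xbp1 mRNA. Atf4 had 123, 80.8 and 99.9 CPM in THBru 1 to 3, against 94.6, 151 and 91.8 CPM in HFD 1 to 3. For both genes the groups overlapped, and with TMM scaling THBru 1 alone exceeded the HFD range, at 385 CPM for Xbp1 and 194 CPM for Atf4. The direction depended on scaling: log2 fold changes were 0.13 for Xbp1 (SE 0.39) and 0.14 for Atf4 (SE 0.47) with TMM, and −0.15 for each on total counts (edgeR adjusted p = 0.863 and 0.877 with TMM).

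Ddit3 was the only one of the 10 with a negative fold change with TMM scaling, and it stood at 1.62 when scaled to mature adipocyte genes, which moved the median of all genes to 2.08. It had 10.9, 10.7 and 12.6 CPM in THBru 1 to 3, against 19.0, 16.6 and 15.4 CPM in HFD 1 to 3. On this scale every THBru library was below every HFD library, as for 12.6% of genes tested. With TMM scaling, Ddit3 had 17.3, 8.96 and 11.3 CPM in THBru 1 to 3, against 17.6, 16.3 and 14.3 CPM in HFD 1 to 3, and THBru 1 fell inside the HFD range. The log2 fold change was −0.36 (SE 0.30; edgeR adjusted p = 0.479) with TMM and −0.58 on total counts (edgeR adjusted p = 0.38). Its mean was 11.4 ± 1.08 CPM in THBru and 17 ± 1.86 CPM in HFD on the total count (SD, n = 3 each).

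**Figure D2:**
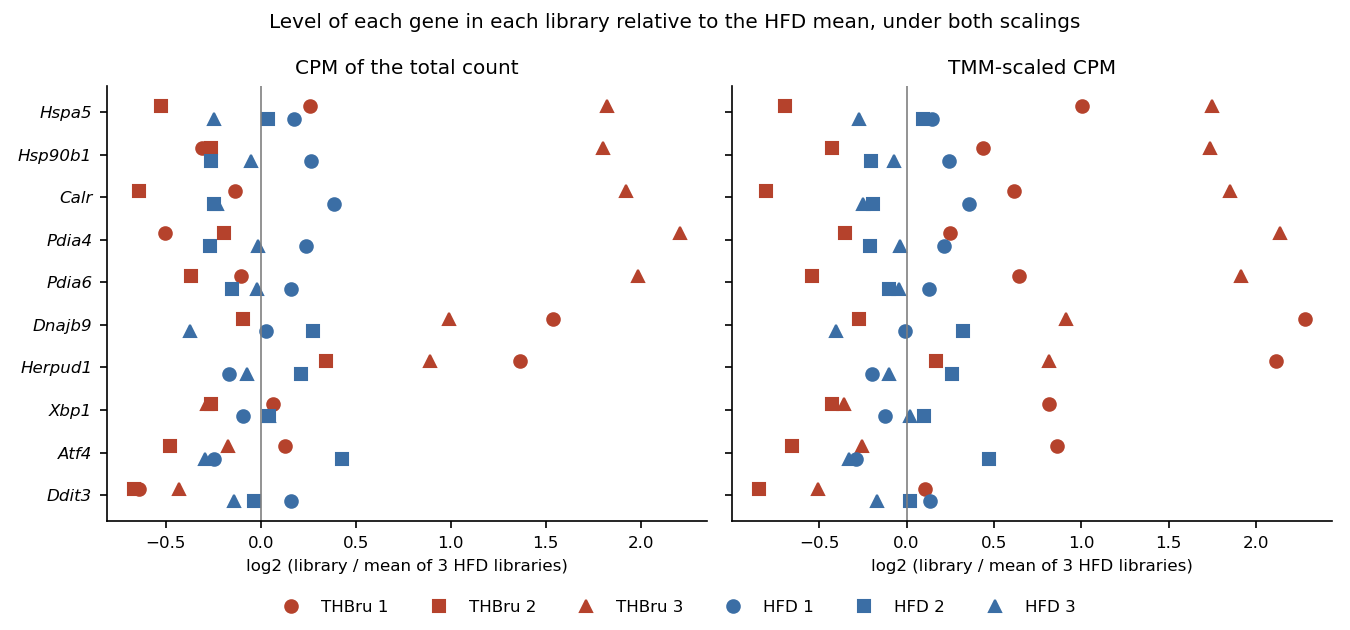
Level of each gene in each library relative to the mean of the 3 HFD libraries on a log2 axis, on the total count (left panel) and with TMM scaling (right panel), THBru in red above HFD in blue. The scaling moves THBru 1 to the right for all 10 genes, from 0.989 to 1.66 times the HFD mean at the median, while THBru 2 stays left of or near 0 and THBru 3 keeps its 5 high chaperone and isomerase genes.

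Counted library by library with TMM scaling, 3 of the 10 genes were at least 2 times the HFD mean in THBru 1 (15.7% of all genes tested), 0 in THBru 2 (11.8%) and 5 in THBru 3 (20.3%). On total counts the numbers were 2 (8.18%), 0 (13.8%) and 5 (21.5%). None was at or below 0.5 times the HFD mean in any THBru library on either scale. Of all genes tested, 21.7, 7.35 and 22.5% were so in THBru 1 to 3 with TMM scaling. On total counts these shares were 40.8, 5.67 and 21.5%. In THBru 2, the library with the most adipocyte marker RNA of the 3, the 10 genes ran from 0.559 to 1.12 times the HFD mean with TMM scaling, and Herpud1 alone was above it.

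The highest HFD library was 1.17 to 1.73 times the lowest over the 10 genes with TMM scaling, widest for Atf4. Among the THBru libraries the same ratio ran from 1.93 for Ddit3 to 6.32 for Calr. On the total count the ratio was 1.18 in THBru and 1.24 in HFD for Ddit3, 1.52 in THBru and 1.64 in HFD for Atf4, and 1.27 in THBru and 1.1 in HFD for Xbp1, so the range in THBru was narrower for Ddit3 and Atf4 and wider for Xbp1. The other 7 genes kept a wider range in THBru on that scale, from 2.04 for Herpud1 to 6.56 for Pdia4. Compared per length in FPKM, Calr was the most abundant of the 10 in HFD at 200 ± 53.2 FPKM, followed by Hsp90b1 (164 ± 31.0), Hspa5 (136 ± 19.7), Xbp1 (69.3 ± 3.72), Pdia4 (67.0 ± 11.8), Pdia6 (59.9 ± 6.72), Atf4 (46.1 ± 13.4), Herpud1 (30.4 ± 4.13), Dnajb9 (22.4 ± 4.86) and Ddit3 (9.61 ± 1.07; SD, n = 3). Within this order the ranges of Calr and Hsp90b1, of Hsp90b1 and Hspa5, of Xbp1 and Pdia4, of Pdia4 and Pdia6, and of Pdia6 and Atf4 overlapped. Atf4 and Herpud1, Herpud1 and Dnajb9, Dnajb9 and Ddit3, and Hspa5 and Xbp1 did not overlap. Calr, Hsp90b1 and Hspa5 lay between percentiles 98.1 and 99.7 of tested genes by FPKM over the 6 libraries, and Ddit3 between 55.5 and 73.6.

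Likeness was measured over the libraries as a description. Over the 6 libraries, the root mean square difference between centred log2 TMM values was 0.13 for Hsp90b1 and Pdia6, 0.16 for Pdia6 and Calr, 0.24 for Dnajb9 and Herpud1 and 0.23 for Xbp1 and Atf4. It was 0.82 for Hspa5 and Xbp1, 0.69 for Hspa5 and Herpud1 and 1.01 for Pdia4 and Xbp1. Ddit3 differed by 0.29 from Xbp1 and 0.38 from Atf4. Herpud1, of another pattern, differed by 0.56 from Xbp1 and 0.53 from Atf4. The patterns were made from the same values, so small differences within a pattern follow from the grouping. Hspa5 differed by 0.21 from Pdia6, 0.21 from Calr, 0.29 from Hsp90b1 and 0.41 from Pdia4. Outside the 10 genes, Camkk1 (0.14) and Bicdl1 (0.19) were closer to Hspa5 than any other of the 10. The tested genes next closest to Hspa5 were H4c14 (0.23), Gas2l1 (0.24) and Map11 (0.24). Those closest to Ddit3 were Gpatch4 (0.08), Eif4a-ps4 (0.08), Zfp280b (0.09), Pno1 (0.11) and Rab7-ps1 (0.12), of which Eif4a-ps4 and Rab7-ps1 are pseudogenes that can share reads with other copies. The histone gene H4c14 has near-identical copies as well, so its counts are uncertain.

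A count ratio of a gene to Hspa5 within a library does not depend on scaling. The log2 ratios of Hsp90b1, Calr, Pdia4 and Pdia6 to Hspa5 overlapped between the groups, with differences in means of −0.10, −0.12, −0.01 and −0.02. The ratio of Ddit3 to Hspa5 was −6.02, −5.27 and −7.37 in THBru 1 to 3, against −5.14, −5.20 and −5.02 in HFD 1 to 3, so all THBru values lay below all HFD values (difference −1.10; exact two-sided permutation p = 0.1, the smallest that 20 relabellings allow, and 0.9 adjusted over 9 ratios). This difference was −0.53 without THBru 3 and −1.58 without THBru 2. Herpud1 to Hspa5 was −1.90, −2.15 and −3.95 in THBru 1 to 3, against −3.36, −2.84 and −2.84 in HFD 1 to 3. THBru 1 and THBru 2 were thus above the HFD range for Herpud1 and THBru 3 below it (difference 0.35; exact permutation p = 0.6). The ratio of Xbp1 to Hspa5 was −3.46 in THBru 3, −1.54 and −1.09 in THBru 1 and THBru 2, and −1.62 to −1.06 in HFD. For Atf4 it was −4.39 in THBru 3, −2.53 and −2.35 in THBru 1 and THBru 2, and −2.82 to −2.02 in HFD, and its difference of −0.66 stood at −0.01 without THBru 3. The exact permutation p-values of the other 8 ratios ran from 0.5 to 1.

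**Figure D3:**
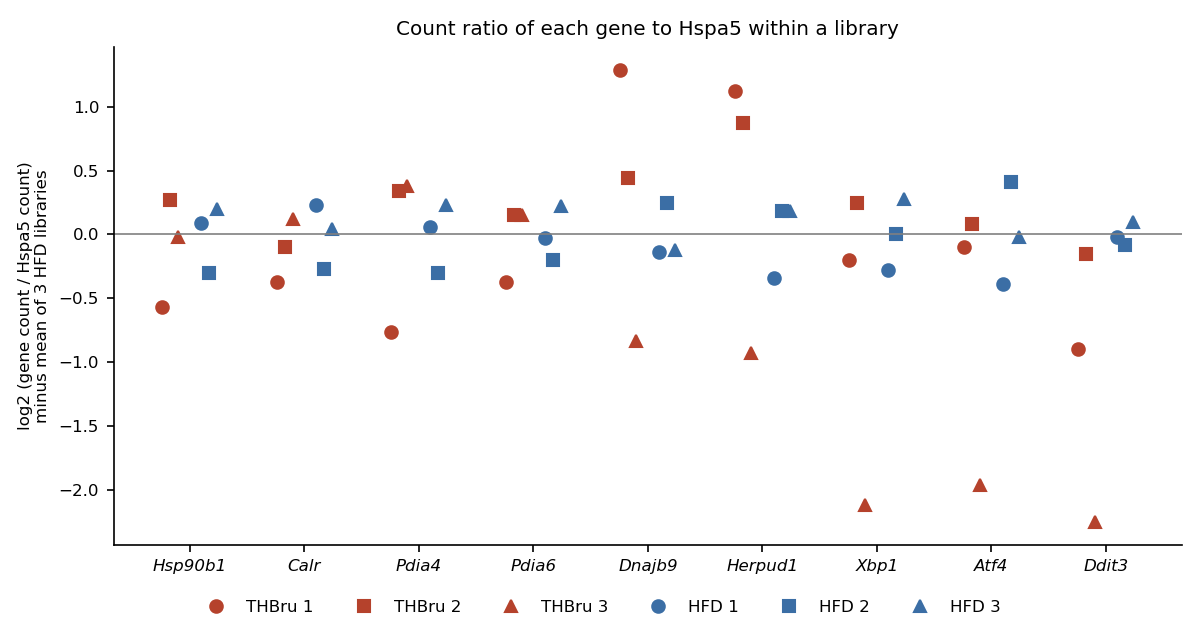
Count of each gene divided by that of Hspa5 in the same library, on a log2 scale and centred on the mean of the 3 HFD libraries, for THBru (red, left) and HFD (blue, right). The groups overlap for the chaperones and isomerases, the transcription factor genes, Dnajb9 and Herpud1 are lowest in THBru 3, and Dnajb9 and Herpud1 are highest in THBru 1.

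The promoters of the 10 genes were searched for the ER stress element as a description. Its part in the levels of the genes was not tested. The ER stress element (ERSE) is CCAAT and CCACG with 9 bases between them, and is bound by NF-Y with ATF6 or the XBP1 protein. A shorter form, ERSE-II, is ATTGG and CCACG with 1 base between. In RefSeq promoter windows of the GRCm38.p6 build, from 250 bases before to 50 bases after each gene's start and on both strands, ERSE was found in 4 of the 10 genes, Hspa5, Hsp90b1, Calr and Pdia6, and in 0.119% of 32851 windows. ERSE-II was found in Herpud1 and in 0.0365% of windows. The sites are shown on the strand of their gene, with 6 flanking bases on each side and the element in capitals, so that the spacing of its ends can be compared.
Hspa5: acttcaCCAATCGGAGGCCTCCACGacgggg
Hsp90b1, first site: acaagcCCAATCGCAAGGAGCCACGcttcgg
Hsp90b1, second site: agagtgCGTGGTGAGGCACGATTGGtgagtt
Calr: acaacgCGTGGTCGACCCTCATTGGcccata
Pdia6: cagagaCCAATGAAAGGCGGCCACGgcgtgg
Herpud1: gcgctgATTGGGCCACGttggac

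These windows lie at chr2:34772019-34772049 (plus strand) for Hspa5, chr10:86705632-86705662 and chr10:86705527-86705557 (minus strand) for Hsp90b1, chr8:84847069-84847099 (minus strand) for Calr, chr12:17266485-17266515 (plus strand) for Pdia6 and chr8:94386371-94386393 (plus strand) for Herpud1. The second site of Hsp90b1 and that of Calr hold the element on the opposite strand. Pdia4 had no exact match, and its window held CCAAT, which occurs in 37.4% of windows, and CCACG, which occurs in 32.8%. Dnajb9 and Atf4 held both of these pieces at another spacing, Ddit3 held CCAAT alone and Xbp1 neither. The CRE core TGACGT, found in 7.51% of windows, was present in Hspa5, and TGATGNAA, a core shared by C/EBP-ATF sites and found in 3.97% of windows, in Herpud1. A match describes the sequence and not factor binding.

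The genes themselves lie, in the coordinates of the table, which for all 10 equal those of GENCODE M21 on GRCm38, on chromosome 2 from 34771970 to 34777547 for Hspa5 (ENSMUSG00000026864), chromosome 10 from 86690209 to 86705509 for Hsp90b1 (ENSMUSG00000020048), chromosome 8 from 84841850 to 84846934 for Calr (ENSMUSG00000003814) and chromosome 8 from 94386438 to 94395377 for Herpud1 (ENSMUSG00000031770). Ddit3 (ENSMUSG00000025408) lies on chromosome 10 from 127290774 to 127296288 and overlaps Mars and Gm4189 on the opposite strand. It also overlaps another protein-coding GENCODE entry of the same symbol on its own strand. Pdia6 (ENSMUSG00000020571) overlaps Atp6v1c2 and Herpud1 overlaps Gm15890, both on the opposite strand. Hsp90b1 overlaps 1810014B01Rik on the opposite strand and Gm15344 and Gm25745 on its own strand. Dnajb9 and Pdia4 each overlap a microRNA gene. The strand setting of the counting is not given in the sources used here, so reads of such neighbours cannot be told apart with certainty. For entries that overlap on the same strand, no strand setting would separate them.

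The rest of the pathway was followed in 8 lists of other ER, stress response and chaperone genes, 155 entries in all, of which 154 were in the table and 152 tested. With edgeR 0 of the 152 passed, against 0.118% of all genes, 19 were higher and 8 lower at an unadjusted p under 0.05 (12.5% and 5.26%, against 13.9% and 8.93% of all genes), and DESeq2 called 11 higher and 5 lower (7.24% and 3.29%, against 10.7% and 7.08% of all genes). These shares are below those of all genes. Without THBru 2, edgeR called 35 of the 152 higher (23.0%) and 1 lower (0.658%), against 5.06% and 4.55% of all genes. Of these 35 genes, 14 belonged to ER translocation and N-glycosylation and 11 to the other ER chaperones and folding enzymes. In THBru 2 alone against HFD 0 of the 152 were called, against 2.21% of all genes.

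**Figure D4:**
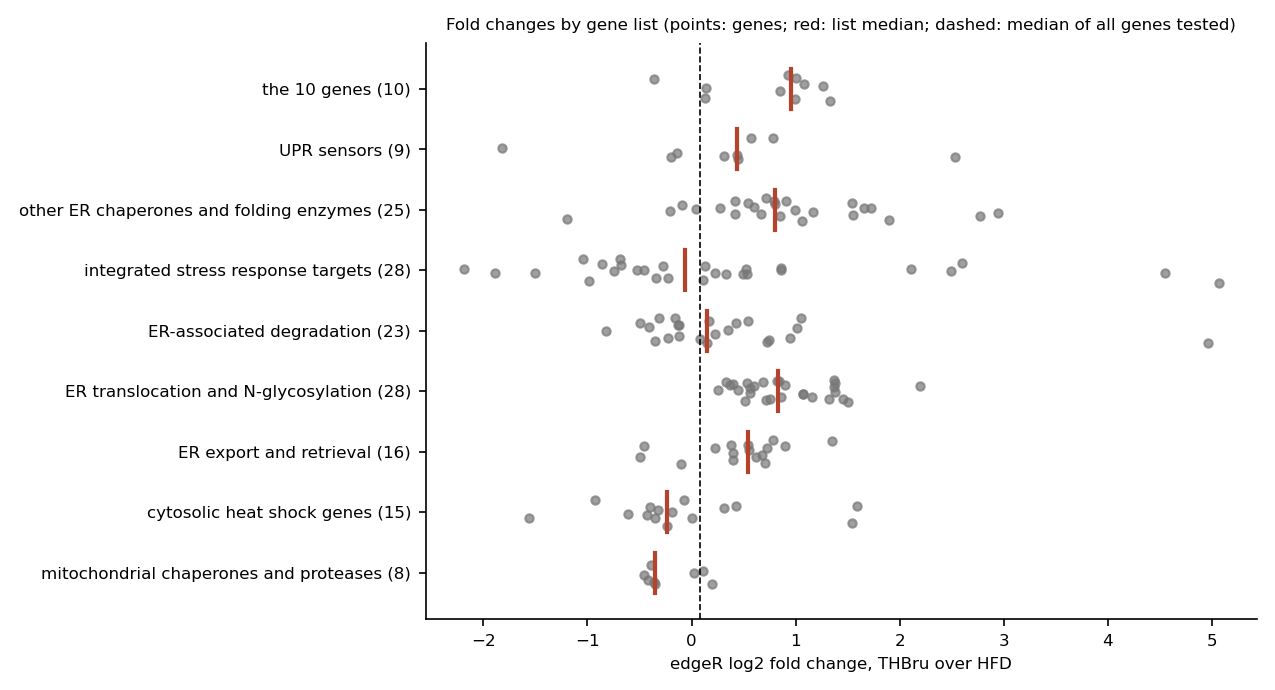
edgeR log2 fold change of THBru over HFD for each tested gene (grey points) of the 10 genes and of 8 lists, with the number tested in parentheses, the list median in red and the median of all genes tested, 0.08, as a dashed line. The 28 translocation and glycosylation genes lie right of 0, and the mitochondrial chaperones lie mostly left of it.

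Ern1, which encodes the sensor IRE1, had the highest fold change of the 9 tested sensors. It had 389, 59.1 and 228 TMM-scaled CPM in THBru 1 to 3, against 41.0, 43.5 and 32.2 CPM in HFD 1 to 3, so that each THBru library was above each HFD library, as for 16.7% of genes on this scale. The log2 fold change was 2.53 (SE 0.68), with an adjusted p of 0.171 in edgeR and 0.00261 in DESeq2. Creb3l1, an ER-anchored factor linked to collagen secretion, had 17.7, 13.2 and 5.31 CPM in THBru 1 to 3, against 47.4, 55.1 and 25.3 CPM in HFD 1 to 3, with every THBru library below every HFD library, as for 15.1% of genes. Its log2 fold change was −1.82 (SE 0.53), with an adjusted p of 0.176 in edgeR and 0.0125 in DESeq2. The 10 fibroblast and matrix markers took 0.133, 0.32 and 0.13% of counts in THBru 1 to 3, against 1.04, 0.606 and 0.384% in HFD 1 to 3, and none was at 0. Their part in the levels of Creb3l1 and of Fkbp14, described with the folding enzymes, was not tested. Creb3l2, with a log2 fold change of 0.57 (SE 0.42), and Creb3, with −0.20 (SE 0.23), are related ER-anchored factors and did not pass in either tool. Over the 9 tested sensors the median was 0.44, and 0 passed in edgeR.

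The other ER chaperones and folding enzymes had a median log2 fold change of 0.80, with 22 of 25 positive and 0 called by edgeR. Dnajc10, a disulfide reductase that works with BiP in degradation, had 574, 104 and 1429 TMM-scaled CPM in THBru 1 to 3, against 110, 100 and 98.3 CPM in HFD 1 to 3. Its log2 fold change was 2.77 (SE 0.90; adjusted p = 0.187 in edgeR and 0.00934 in DESeq2), and THBru 2 lay within the HFD range on this scale, though slightly above it on the total count. P4hb, the classical protein disulfide isomerase, had 1548, 410 and 902 CPM in THBru 1 to 3, against 606, 576 and 470 CPM in HFD 1 to 3. On the total count P4hb had 978, 488 and 1007 CPM in THBru 1 to 3, against 655, 589 and 507 CPM in HFD 1 to 3, so THBru 1 and THBru 3 were high on both scales and their order depended on scaling. Pdia3, the isomerase of glycoproteins, had 637, 281 and 941 CPM in THBru 1 to 3, against 485, 320 and 327 CPM in HFD 1 to 3. Fkbp14, a prolyl isomerase of collagen folding, had 7.70, 21.4 and 18.3 CPM in THBru 1 to 3, against 30.2, 49.5 and 29.3 CPM in HFD 1 to 3 (log2 fold change −1.20, SE 0.45; edgeR adjusted p = 0.201).

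Genes that carry proteins into the ER and attach sugars to them had 1 direction in this fit. All 28 fold changes were positive, between 0.25 and 2.2, with a median of 0.83, and edgeR called 0 of 28. Sec11c, a signal peptidase subunit, had 171, 24.5 and 152 TMM-scaled CPM in THBru 1 to 3, against 28.1, 25.0 and 22.5 CPM in HFD 1 to 3 (log2 fold change 2.2, SE 0.70; adjusted p = 0.185 in edgeR and 0.0157 in DESeq2). Ssr3 of the translocon-associated complex had 570, 250 and 589 CPM in THBru 1 to 3, against 294, 277 and 226 CPM in HFD 1 to 3. Rpn2 of the oligosaccharyltransferase had 518, 215 and 541 CPM in THBru 1 to 3, against 334, 297 and 303 CPM in HFD 1 to 3. Sec61g, a small subunit of the translocation channel, stood at 1.37 (SE 0.49). The list's median level was 2.5, 0.886 and 1.97 times the HFD mean in THBru 1 to 3 with TMM scaling and 1.48, 0.996 and 2.07 times on the total count, so the order of THBru 1 and THBru 3 depended on scaling. In the same libraries general epithelial markers took 0.117, 0.0464 and 0.189% of counts, against 0.000703 to 0.0103% in HFD. The part of epithelial cells in the levels of this list was not tested.

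Export and retrieval genes had a median log2 fold change of 0.54 over 16 genes, 13 of them positive and 0 called by edgeR. Sar1b, a GTPase that starts the export coat, had 65.2, 42.0 and 60.6 TMM-scaled CPM in THBru 1 to 3, against 36.3, 34.4 and 33.7 CPM in HFD 1 to 3. It was above HFD in every THBru library, as were 16.7% of genes tested (log2 fold change 0.68, SE 0.22; adjusted p = 0.183 in edgeR and 0.0371 in DESeq2). Sec23b, of the same coat, stood at 1.35 (SE 0.51), Tmed2 at 0.62 (SE 0.29) and Kdelr1, a receptor that returns ER chaperones, at 0.23 (SE 0.29).

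ER-associated degradation genes had a median of 0.15 over 23 genes, beside 0.08 for all genes, with 0 called by edgeR. Derl3, a derlin of the degradation channel known from secretory cells, had 75.9, 2.41 and 84.3 TMM-scaled CPM in THBru 1 to 3, against 1.79, 1.37 and 2.04 CPM in HFD 1 to 3 (log2 fold change 4.96, SE 1.27; adjusted p = 0.166 in edgeR and 6.9e-05 in DESeq2). Derl3 is also 1 of the 10 plasma cell markers, which together took 0.0121, 0.0328 and 0.0401% of counts in THBru 1 to 3, against 0.0371, 0.0153 and 0.0167% in HFD 1 to 3. These shares include Derl3 itself, at 48, 2.87 and 94.1 CPM of the library total in THBru 1 to 3. Igkc had 11, 66.5 and 12.7 CPM in THBru 1 to 3, against 53.1, 18.5 and 6.18 CPM in HFD 1 to 3. Among the THBru libraries, Jchain and Ighm were also highest in THBru 2, at 15 and 197 CPM. Above every HFD library stood 1, 4 and 2 of the 10 in THBru 1 to 3, and below every one 4, 1 and 3. Of the 10, 2 were at 0 in THBru 1 (Mzb1 and Tnfrsf17), 1 in THBru 3 (Tnfrsf17) and 1 in HFD 3 (Tnfrsf17). Sdc1, which epithelial cells also express, had 13.9, 24.5 and 229 CPM of the library total in THBru 1 to 3, against 72.7, 21.1 and 51.9 CPM in HFD 1 to 3. The part of such cells in the level of Derl3 was not tested. The abundant Os9, a lectin, stood at 0.23 (SE 0.29), the segregase gene Vcp at 0.17 (SE 0.30), and the ubiquitin-conjugating enzyme gene Ube2g2 at −0.82 (SE 0.31).

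Targets of the integrated stress response, which PERK and ATF4 feed, had no common direction, with 14 of 28 positive, 14 negative, a median of −0.06 and 0 called by edgeR. DESeq2 called 4 higher, Shmt2, Mthfd2, Slc7a5 and Wars, and 3 lower, Atf3, Phgdh and Nupr1, which are 14.3% and 10.7% of the list, beside 10.7% and 7.08% of all genes. Shmt2, a mitochondrial enzyme of serine use, had 184, 39.2 and 97.5 TMM-scaled CPM in THBru 1 to 3, against 27.0, 23.3 and 23.8 CPM in HFD 1 to 3 (log2 fold change 2.11, SE 0.56; adjusted p = 0.168 in edgeR and 0.00417 in DESeq2). Wars, the cytosolic tryptophan tRNA synthetase gene, had 402, 64.9 and 763 CPM in THBru 1 to 3, against 74.8, 65.1 and 79.6 CPM in HFD 1 to 3. Phgdh, the first enzyme of serine synthesis, had 162, 145 and 142 CPM in THBru 1 to 3, against 204, 216 and 329 CPM in HFD 1 to 3 (log2 fold change −0.74, SE 0.26; adjusted p = 0.195 in edgeR and 0.0353 in DESeq2). Nupr1, a stress-induced nuclear protein gene, had 11.2, 21.6 and 14.7 CPM in THBru 1 to 3, against 37.7, 59.9 and 36.9 CPM in HFD 1 to 3 (log2 fold change −1.50, SE 0.34; adjusted p = 0.157 in edgeR and 0.00129 in DESeq2). Phgdh and Nupr1 lay below HFD in all 3 THBru libraries, as 15.1% of genes did, and Shmt2 above it, as 16.7% did.

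**Figure D5:**
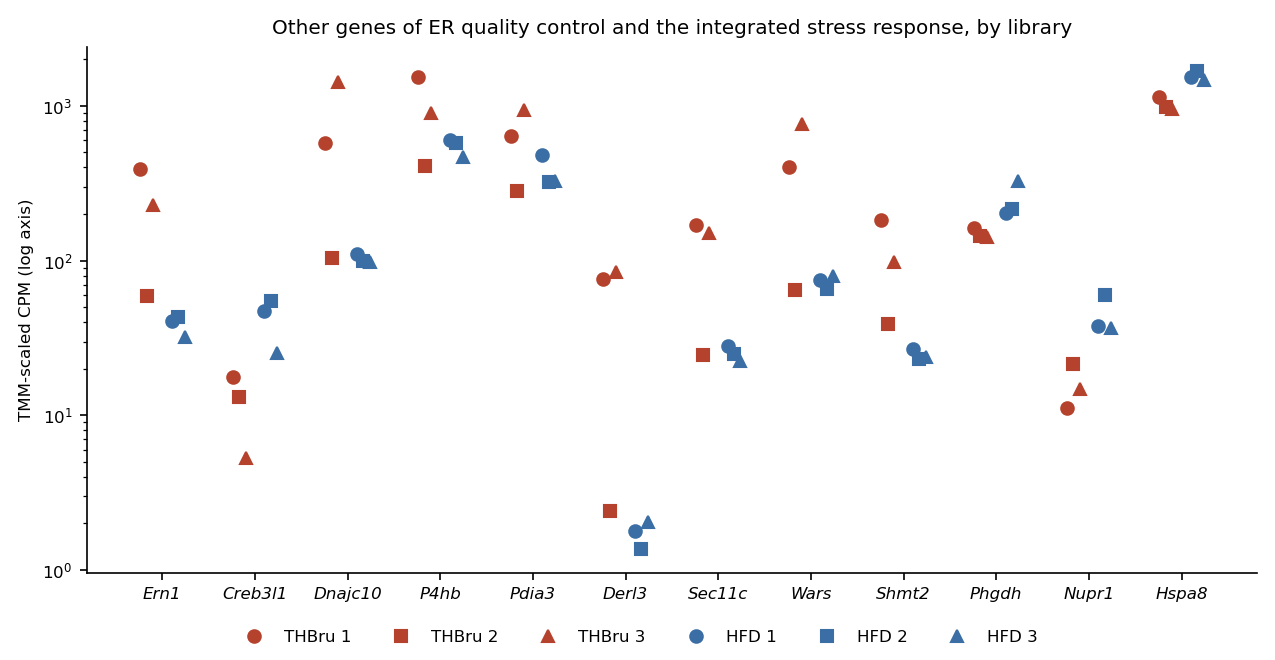
TMM-scaled CPM, on a log axis, of 12 of the named pathway genes in each THBru (red, left) and HFD (blue, right) library. Ern1, Shmt2 and Derl3 lie above HFD in every THBru library, as 16.7% of genes tested do. Creb3l1, Phgdh, Nupr1 and Hspa8 lie below it, as 15.1% do. Dnajc10, Derl3, Sec11c and Wars are high in THBru 1 and THBru 3 with THBru 2 close to HFD.

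The 2 lists of chaperones outside the ER had negative medians with TMM scaling, though not every gene in them was negative. Cytosolic heat shock genes had a median log2 fold change of −0.24, with 11 of 15 negative, and mitochondrial chaperones and proteases one of −0.36, with 5 of 8 negative, and edgeR called 0 in both lists. Scaled to mature adipocyte genes, these medians stood at 1.91 and 1.66, beside 2.08 for all genes. The highest fold changes of the cytosolic list were positive, with log2 values of 1.59 for Hspa1a and 1.54 for Hspa1b. Hspa1a had 32.8, 9.37 and 66.9 TMM-scaled CPM in THBru 1 to 3, against 8.26, 21.3 and 6.55 CPM in HFD 1 to 3. Hspa8, the constitutive cytosolic HSP70, had 1144, 986 and 949 TMM-scaled CPM in THBru 1 to 3, against 1543, 1684 and 1460 CPM in HFD 1 to 3. Every THBru library was below every HFD library, as for 15.1% of genes tested (log2 fold change −0.61, SE 0.30; adjusted p = 0.271 in edgeR and 0.0021 in DESeq2). Hsp90ab1, the cytosolic relative of Hsp90b1, stood at 0.43 (SE 0.35), Cryab at −1.56 (SE 0.58) and Ahsa1 at −0.35 (SE 0.17). The mitochondrial HSP70 gene Hspa9 stood at −0.39 (SE 0.29), Hspd1 at −0.35 (SE 0.23), Hspe1 at −0.42 (SE 0.21) and Trap1 at −0.36 (SE 0.20), and none of these passed in either tool.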

How the data were processed

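RNA of white adipose tissue was measured in 3 THBru and 3 HFD samples. Per the labels' protocols, poly(A) RNA was sequenced as paired reads from libraries whose second strand was marked with dUTP. The deposited table holds raw counts and FPKM per gene, named so per the file headers. The submitters' processing notes list, with no roles, StringTie 2.1.6, HISAT2 2.2.1, Cutadapt 1.9, edgeR and DESeq2. Neither the counting program nor the genome build is given in the sources used here. GENCODE M21 holds 99.7% of the identifiers, 87.5% of those at equal coordinates. The 32819 rows were summed by symbol into 32759 genes.

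A mean FPKM of 0.5 or more over all samples left 16140 genes, which were tested with edgeR 4.0.16 (quasi-likelihood, robust, TMM, library size equal to the total count; R 4.3.3), two-sided, with Benjamini-Hochberg adjustment and a threshold of 0.05. SE is the log2 fold change divided by the square root of F. DESeq2 1.42.0 was run beside it, on 15572 genes with an adjusted p. The edgeR steps were tested on simulated counts. Those libraries shared a common mean profile apart from genes changed between the groups. They therefore did not hold the differences in composition between single libraries seen here. Ratios to Hspa5 were tested by exact permutation. TMM values in CPM describe levels. A count of 0 allows up to 3 counts, 0.0390 to 0.0446 CPM, for counting error only. Member counts ran from 730 to 160241. The chi-square per gene between any pair of libraries was at least 220, so no pair was a duplicate.

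The 10 genes, the lists and the alternatives were chosen with earlier results of these data known. Named pathway genes are the 2 with the largest mean FPKM and the 2 with the smallest p in each list, and the 5 genes nearest to Hspa5 and to Ddit3 without predicted genes. Mthfd2, Slc7a5, Atf3, Hspa1a, Hspa1b, Mzb1, Tnfrsf17, Sdc1, Igkc, Jchain and Ighm were named after their values were seen.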

Additional observations from a re-analysis of the deposited data

How the results depend on the processing

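Leaving out 1 library in turn gave 0 to 1552 genes called of 16140 (19 with all 6, 1552 without THBru 2, 79 without THBru 1 and 0 without any one HFD library), 0 to 36 pathway genes, and a median log2 fold change of the 10 genes of 0.23 to 1.39. Log2 fold changes then ran from −0.03 to 1.48 for Pdia4, −0.42 to 0.34 for Xbp1, −0.46 to 0.44 for Atf4, −0.01 to 0.44 for Os9 and −0.14 to 0.38 for Kdelr1. Differences of the log2 ratio to Hspa5 ran from −0.29 to 0.13 for Hsp90b1, −0.21 to 0.36 for Pdia4, −0.12 to 0.15 for Pdia6, −0.25 to 0.01 for Calr, −1.16 to 0.03 for Xbp1, −1.03 to −0.01 for Atf4, −1.58 to −0.53 for Ddit3, −0.19 to 0.87 for Dnajb9 and −0.03 to 0.99 for Herpud1.

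Total counts gave 53 genes called, with Xbp1 at −0.15, Atf4 at −0.15 and Kdelr1 at −0.00. DESeq2 called 2773 genes and 16 pathway genes. THBru 2 alone gave 356 genes and a median of the 10 genes of −0.46, with Hspa5 at −0.67, Hsp90b1 −0.41, Pdia4 −0.34, Pdia6 −0.52, Calr −0.79, Xbp1 −0.41, Atf4 −0.63, Dnajb9 −0.25, Creb3l2 −0.15, P4hb −0.41, Pdia3 −0.40, Wars −0.15, Os9 −0.28, Vcp −0.35, Ssr3 −0.07, Rpn2 −0.51, Sec11c −0.02, Kdelr1 −0.12, Sec23b −0.08, Hsp90ab1 −0.06 and Hspa9 0.00. That fit assumes that the lone sample varies like the HFD samples.

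Scaling to the mature adipocyte genes, which took 0.574% of counts in THBru 3, moved the median of all genes to 2.08 and that of the 10 genes to 3.33. It gave 4562 genes called (28.1% higher and 0.155% lower), 69 pathway genes and 7 of the 10 genes, which were all but Xbp1, Atf4 and Ddit3. Ddit3 then stood at 1.62, Creb3 at 1.77, Fkbp14 0.87, Phgdh 1.30, Nupr1 0.41, Ube2g2 1.0, Hspa8 1.37, Ahsa1 1.61, Hspa9 1.43, Hspd1 1.67, Hspe1 1.65 and Trap1 1.51. The cause of these changes was not tested.

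The replicate numbers are shared between the groups, but same-numbered samples did not deviate together (correlations of 0.0522, −0.00817 and −0.0641 across genes), so the numbers were not taken as pairs. With the replicate block 0 genes were called. The median of the 10 genes stood at 0.61 with it. DESeq2 size factors, no filter and a fit without robust estimation gave 19 to 28 genes and 0 of the 10.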
